A study of Arabidopsis thaliana with 9 samples.

Results

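The 3 seedling libraries titled aar2-1 were set against the 3 libraries titled WT, 6 of the 9 messenger RNA libraries of the series, over 22903 listed loci of Arabidopsis thaliana. The other 3 libraries, titled aar2-2, carry a further mutant allele of AAR2 and are used to show where the aar2-1 values are larger. Seedlings of all 3 genotypes were 14 days old and had been kept on 1/2 MS medium, a mineral plant medium, with 16 h of light and 8 h of darkness a day. The labels name no transgene and no treatment. The kind of lesion in each allele, the number of seedlings in a library and whether replicates were separate cultures are not given in the sources used here, so p-values measure the spread between these libraries, which may be technical.

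AAR2 was first described in yeast, where the protein binds Prp8 and keeps the U5 small nuclear ribonucleoprotein, a core particle of the spliceosome, in an immature state until assembly is complete. PRP8, the helicase BRR2 and the GTPase SNU114 are the large proteins of that particle. Plants carry a gene of the same name, and Arabidopsis has more than 1 copy of each of the 3 partners.

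The deposited unit, CPM, is a gene's reads scaled to a fixed library total. The aar2-1 libraries held 29163704 to 31304548 reads over the listed genes, the aar2-2 libraries 32392645 to 35266334 and the WT libraries 24471217 to 27715504. Depth was therefore greater in every mutant library than in every WT library, and its part in the results was not tested. The 18838 genes whose mean over the libraries reached 1 CPM were tested with limma on log2(CPM + 1), and a gene was called at an adjusted p under 0.05. All log2 fold changes below are on that scale, which understates the change of genes near 1 CPM. WT replicate 2 was the lowest WT library for 52.5% of all tested genes and stood above the other 2 in several of the most raised ones. Leaf mesophyll markers summed to between 46779 and 52448 CPM in aar2-1 and between 44009 and 45621 CPM in WT, so leaf transcripts were abundant. Root hair and root endodermis markers were close to absent: of 13 listed, 2 passed the filter on low values. None of the markers of mesophyll, root hair, endodermis, stomatal lineage or floral organs that could be tested was called in aar2-1, and no seed storage marker passed the filter. How strand was treated in counting is not given in the sources used here, and 29.4% of tested genes overlap another gene on the other strand. Of the genes named below, this holds among others for GMI1, RAD17, DIN6, AT3G23550, EXT3, PAP17, SHV3, WRI4 and ORA47, whose reads cannot be told apart from those of their partners.

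Stretches upstream of 5 called genes from 3 of the groups described below are shown first, picked because each holds the letters of a binding site tied to its group in the literature. Other members do not hold those letters in this window, among them MGD3, IPS1 and PHT1;4, which changed by more than PS2. GMI1, which changed by more than PARP2, does not hold them either. Nor does AT2G18193, which changed by more than DTX3, hold the letters marked in DTX3, and NDB2, which holds them, was not called. The stretches are the 250 bases before the annotated gene start, from RefSeq assembly TAIR10.1, read 5′ to 3′ on the gene's strand. Capitals in the first pair mark GNATATNC, known as P1BS, the site of the PHR1 family of phosphate starvation regulators.
SPX3: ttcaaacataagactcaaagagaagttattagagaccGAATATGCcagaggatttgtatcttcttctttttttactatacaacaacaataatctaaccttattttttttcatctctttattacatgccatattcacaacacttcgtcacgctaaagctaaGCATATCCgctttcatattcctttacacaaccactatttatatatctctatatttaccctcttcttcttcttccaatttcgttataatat
PS2: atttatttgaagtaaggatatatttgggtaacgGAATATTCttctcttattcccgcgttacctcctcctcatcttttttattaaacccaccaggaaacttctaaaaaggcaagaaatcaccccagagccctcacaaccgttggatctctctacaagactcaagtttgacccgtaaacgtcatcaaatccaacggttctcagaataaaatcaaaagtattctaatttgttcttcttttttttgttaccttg
The SPX3 stretch is chr2:18606160-18606409 on the plus strand and the PS2 stretch chr1:27466349-27466598 on the minus strand. Capitals in the next pair mark CTT and AAG with 7 bases of any kind between them, the site reported for SOG1, the central transcription factor of the plant DNA damage response.
NAC044: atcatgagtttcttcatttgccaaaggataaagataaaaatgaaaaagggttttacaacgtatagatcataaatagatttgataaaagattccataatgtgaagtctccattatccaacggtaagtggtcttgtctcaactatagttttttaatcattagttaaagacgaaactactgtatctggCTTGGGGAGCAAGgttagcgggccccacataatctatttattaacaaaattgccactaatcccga
PARP2: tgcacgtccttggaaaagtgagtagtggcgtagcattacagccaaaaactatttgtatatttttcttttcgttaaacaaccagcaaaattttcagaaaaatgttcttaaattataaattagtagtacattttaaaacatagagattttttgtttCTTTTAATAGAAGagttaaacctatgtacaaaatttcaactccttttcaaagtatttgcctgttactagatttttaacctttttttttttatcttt
The stretch marked in NAC044 also holds the letters of the next motif. NAC044 gave chr3:228825-229074 and PARP2 chr4:1049516-1049765, both on the plus strand. Capitals in the last stretch mark CTTG and CAAG with 5 bases between them, one spelling of the mitochondrial dysfunction motif (MDM) bound by NAC factors of the ANAC017 group. Every match to it is also a match to the SOG1 letters.
DTX3: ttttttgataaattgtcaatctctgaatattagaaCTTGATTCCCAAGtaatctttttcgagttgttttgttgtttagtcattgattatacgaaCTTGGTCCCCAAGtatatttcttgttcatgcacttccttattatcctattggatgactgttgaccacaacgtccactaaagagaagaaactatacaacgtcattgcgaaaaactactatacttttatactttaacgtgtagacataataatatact
This one is chr2:1339469-1339718 on the minus strand. All 3 motifs read the same on both strands, and both strands were searched in the windows of 18747 tested genes. P1BS occurred in 5.48% of these windows, in 13.5% of the 192 genes lowered at least 2-fold, in 9.96% of the 241 raised at least 2-fold and in 7 of 24 phosphate starvation genes. The SOG1 letters occurred in 8.77% of all windows, 9.54% of the 241 raised genes and 10.4% of the 192 lowered genes. They occurred in 4 of 15 DNA damage genes, and at a like share in retrograde stress genes (27.8%) and clock genes (26.3%). MDM occurred in 0.496% of all windows, in 7 of the 241 genes raised at least 2-fold (2.90%), in 0 of the 192 lowered at least 2-fold, in 3 of 18 retrograde stress genes and in 1 of 15 DNA damage genes, NAC044. In windows that also took in 50 bases after the start, P1BS occurred in 12 of 24 phosphate starvation genes and 6.26% of all, and the SOG1 letters in 8 of 18 retrograde stress genes, 4 of 15 DNA damage genes and 10.8% of all. MDM occurred in 5 of 18 retrograde stress genes and 0.608% of all in these windows. Other motifs were searched in the same windows, and their shares are not given here. A match is a description of letters and does not show binding.

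AAR2 itself (AT1G66510), the gene named in the genotype, gave 7.33, 5.49 and 5.30 CPM in aar2-1, 5.28, 4.36 and 4.11 CPM in aar2-2 and 7.64, 7.11 and 8.27 CPM in WT. One aar2-1 library lay inside the WT range and the other 2 lay below it. The change in aar2-1 was -0.31 (SE 0.13) and was not called (limma adjusted p = 0.101), whereas aar2-2, in which 21.5% of all genes were called, was called at -0.64 (SE 0.13). AAR2 transcript was thus still counted in aar2-1, and AT1G66520, on the opposite strand, shares bases with its exons. Of the 20 tested genes nearest to AAR2, 10 on each side, 0 were called higher and 3 lower, with a median log2 fold change of -0.015.

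In aar2-1, 4732 of 18838 genes (25.1%) were called against WT, 2166 higher (11.5%) and 2566 lower (13.6%). Most changes were small. Of the called genes, 66.1% of those higher and 69.4% of those lower changed by less than 1.5-fold, and the median log2 fold change was 0.46 for the higher and -0.45 for the lower. At least 2-fold higher were 241 genes (1.28%) and at least 2-fold lower 192 (1.02%); at least 4-fold higher were 20 (0.106%) and at least 4-fold lower 10 (0.0531%). The counts of called genes were lower without some libraries, 2331 without WT replicate 1 and 2960 without aar2-1 replicate 1. Where counts without a library are given below, the shares of all genes to set them beside were 5.61% higher and 6.76% lower without WT replicate 1, 6.76% higher and 11.3% lower without WT replicate 2, and 8.27% higher and 8.48% lower without WT replicate 3. Without aar2-1 replicate 1 they were 6.69% higher and 9.02% lower, without aar2-1 replicate 2 11.4% higher and 13.2% lower, and without aar2-1 replicate 3 9.47% higher and 10.6% lower. For the 241 raised genes the log2 medians were 1.26 in aar2-1 and 0.83 in aar2-2, and among the 192 lowered genes -1.22 in aar2-1 and -0.89 in aar2-2. The genes were chosen on the aar2-1 values and both comparisons share the WT libraries, so this gap is a description.

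**Figure D1:**
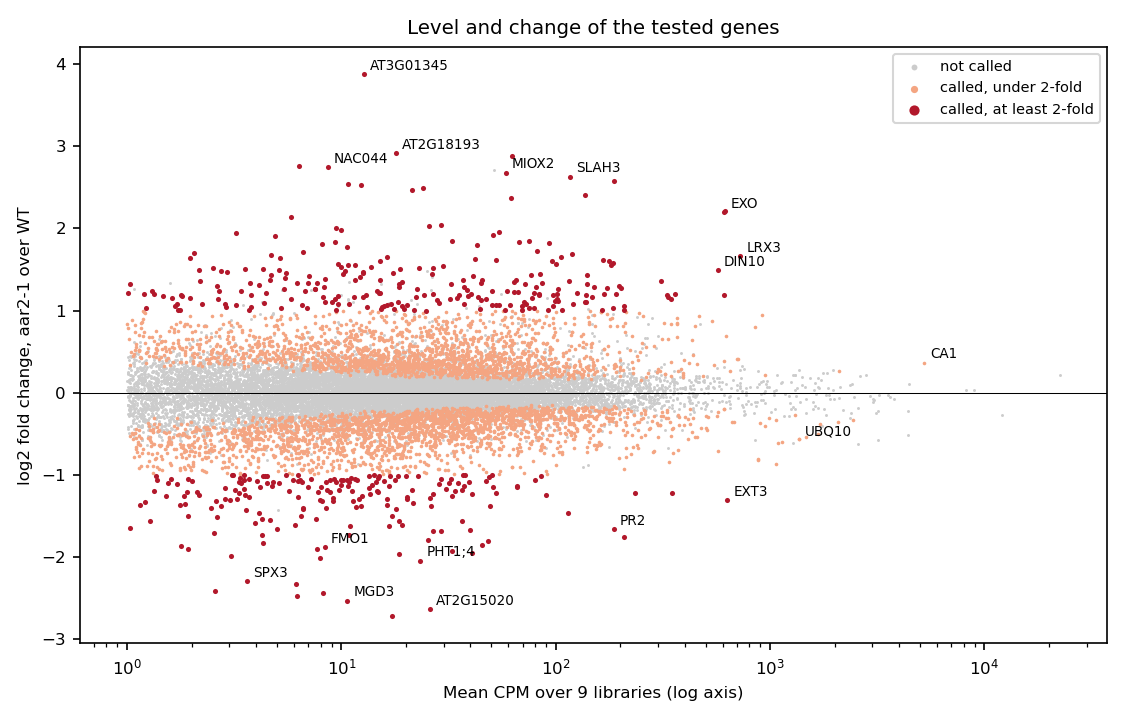
Each point is a tested gene, placed by its mean CPM over 9 libraries (log axis) and its log2 fold change, aar2-1 over WT. Grey points were not called, pale points were called at under 2-fold and dark points are the 433 genes called at 2-fold or more. AT3G01345 is the highest point, at 3.88, and the labelled low points MGD3 and AT2G15020 lie at -2.53 and -2.64.

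The gene raised the most in aar2-1 has no described function. AT3G01345, an uncharacterized protein gene, gave 31.1, 29.3 and 21.6 CPM in aar2-1, 10.1, 10.03 and 8.36 CPM in aar2-2 and 0.286, 3.28 and 0.254 CPM in WT. No library of one genotype reached another's range, and WT replicate 2 was the highest WT value. Against WT this was a log2 fold change of 3.88 (SE 0.39, limma adjusted p = 0.000452). AT1G64795, also uncharacterized, reached 6.07, 8.37 and 7.25 CPM in aar2-1 and 11.1, 11.7 and 11.7 CPM in aar2-2, against 0.0409, 0.613 and 0.0363 CPM in WT; its exons overlap AT1G64790 on the other strand. AT5G60250, a RING-type zinc finger protein gene, had 17.1, 12.1 and 16.0 CPM in aar2-1 and 12.5, 15.5 and 17.2 CPM in aar2-2, against 1.14, 3.18 and 1.31 CPM in WT. The last 2 had log2 fold changes of 2.76 (SE 0.17) and 2.54 (SE 0.24) in aar2-1, and AT5G60250 overlaps AT5G60260.

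Several genes of cell wall proteins were raised over 2-fold and varied widely within aar2-1. TCH4, a touch-inducible xyloglucan endotransglucosylase that remodels wall polymers, gave 941, 572 and 1558 CPM in aar2-1, 265, 602 and 962 CPM in aar2-2 and 184, 156 and 288 CPM in WT. EXO, a secreted protein gene responsive to brassinosteroids, gave 957, 666 and 1393 CPM in aar2-1, 257, 613 and 982 CPM in aar2-2 and 196, 161 and 285 CPM in WT. In both genes the 3 aar2-1 libraries lay above all WT libraries. Both genes had their highest value in replicate 3 and their lowest in replicate 2, in aar2-1 and in WT. Their log2 fold changes were 2.22 (SE 0.46) and 2.20 (SE 0.44), with limma adjusted p-values of 0.00884 and 0.00696. LRX3, a leucine-rich repeat extensin of the cell wall, gave 1145, 774 and 1558 CPM in aar2-1, against 360.0, 281 and 423 CPM in WT. LRX2, of the same family, gave 18.99, 14.7 and 26.6 CPM in aar2-1, against 1.59, 3.72 and 2.69 CPM in WT. The changes were 1.67 (SE 0.34) for LRX3 and 2.53 (SE 0.32) for LRX2.

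XTH18, another enzyme of the TCH4 family, gave 88.3, 25.7 and 259.9 CPM in aar2-1, 7.07, 38.8 and 108 CPM in aar2-2 and 6.78, 13.7 and 12.5 CPM in WT. It rose by 2.88 (SE 0.93). The limma adjusted p of 0.0465 stayed under 0.05 without aar2-1 replicate 2, and the call was lost when any of the 5 other aar2-1 and WT libraries was left out. SLAH3, an anion channel, gave 193, 96.2 and 395 CPM in aar2-1 and 24.5, 40.7 and 28.4 CPM in WT. MIOX2, an oxygenase that opens myo-inositol on a route to wall sugars, gave 132, 32.0 and 169.6 CPM in aar2-1 and 9.97, 20.4 and 11.1 CPM in WT. PHI-1, a relative of EXO, gave 313, 149.6 and 534 CPM in aar2-1 and 42.2, 43.8 and 60.2 CPM in WT. Again the lowest aar2-1 value of each was replicate 2. Log2 fold changes were 2.63 for SLAH3, 2.68 for MIOX2 and 2.58 for PHI-1 (SE 0.58, 0.54 and 0.58).

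Of 19 xyloglucan endotransglucosylases tested, 7 were higher and 3 lower in aar2-1, with a median log2 fold change of 0.74, against -0.0037 for all tested genes. The count of 7 became 4 without WT replicate 1, WT replicate 2 or aar2-1 replicate 3, 3 without aar2-1 replicate 1 and 12 without aar2-1 replicate 2. XTH7 and XTH32 went the other way, with log2 fold changes of -0.69 and -0.58. Among 19 expansins, which loosen walls, 4 were higher and 6 lower; the 4 became 0 without WT replicate 1 and 1 without WT replicate 2, WT replicate 3, aar2-1 replicate 1 or aar2-1 replicate 3. EXPA11 fell to 12.4, 16.5 and 8.31 CPM in aar2-1, against 27.4, 31.3 and 32.6 CPM in WT. Also lower was EXT3, a structural extensin, at 404, 409 and 351 CPM in aar2-1 and 1081, 787 and 1036 CPM in WT. Pectin-modifying enzymes were called lower in 28 of 88 and higher in 9, with 15 lower without WT replicate 1 and 18 without WT replicate 3.

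**Figure D2:**
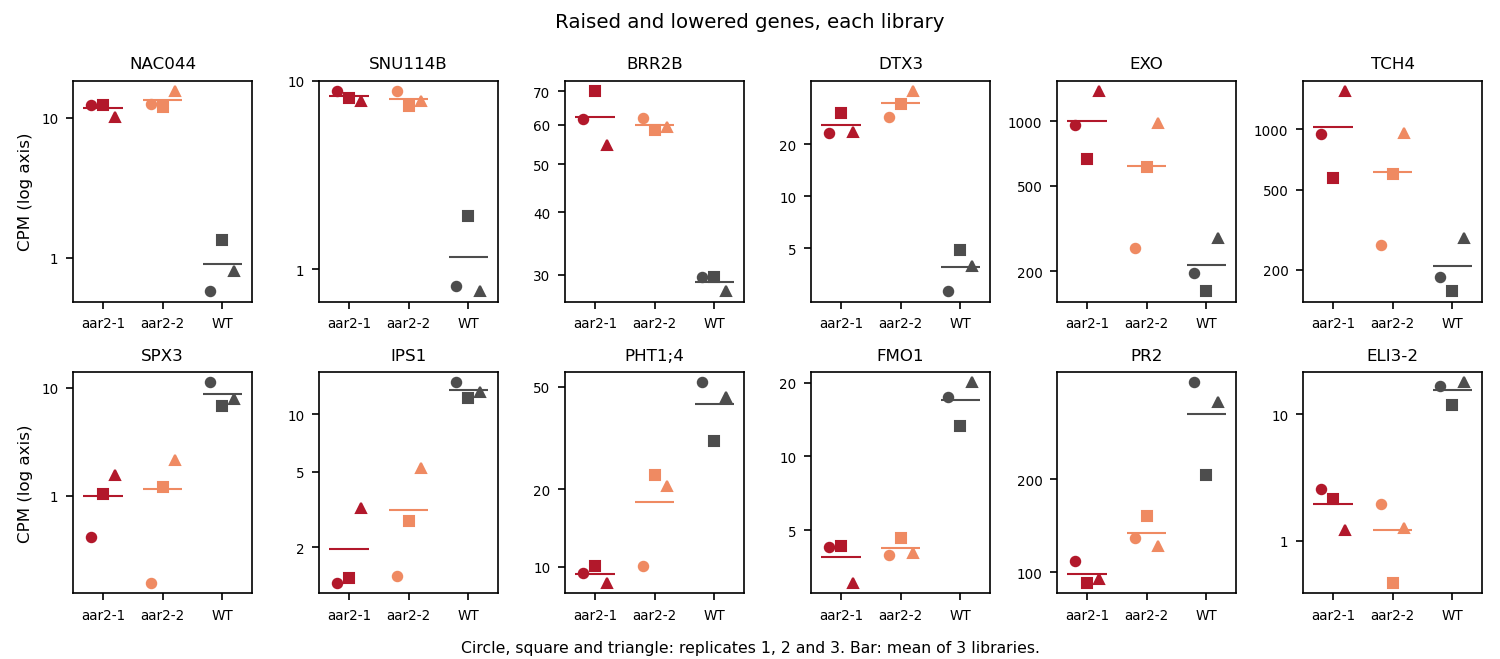
CPM on a log axis for 12 genes in each library, with aar2-1 left, aar2-2 in the middle and WT right; circle, square and triangle are replicates 1, 2 and 3 and each bar is the mean of 3 libraries. NAC044, SNU114B and BRR2B are even across the 6 mutant libraries, whereas EXO runs from 666 to 1393 CPM and TCH4 from 572 to 1558 CPM within aar2-1.

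The swing was shared by many genes. Over the 241 genes raised at least 2-fold, aar2-1 replicate 3 was the highest aar2-1 library in 187 (77.6%) and replicate 2 the lowest in 191 (79.3%), where over all tested genes these shares were 32.4% and 32.2%. The median height above the WT mean was 1.30, 0.97 and 1.67 on the log2 scale in aar2-1 replicates 1, 2 and 3, and 0.37, 0.86 and 1.15 in aar2-2 replicates 1, 2 and 3. In aar2-2, replicate 1 was the lowest library in 201 of the 241 and replicate 3 the highest in 207 (85.9%). Over all tested genes aar2-2 replicate 3 was the highest in 31.6%. WT replicate 3 was the highest WT library in 148 of the 241 (61.4%), where over all tested genes the share was 44.3%. WT replicate 2 was the lowest in 126 (52.3%), close to its 52.5% of all tested genes. The highest aar2-1 value exceeded the lowest by a median of 1.75-fold, by over 2-fold in 94 genes and by under 1.5-fold in 87. Lowered genes were more even, with medians of -1.22, -1.10 and -1.38 in aar2-1 replicates 1, 2 and 3. What differed between the libraries was not tested.

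**Figure D3:**
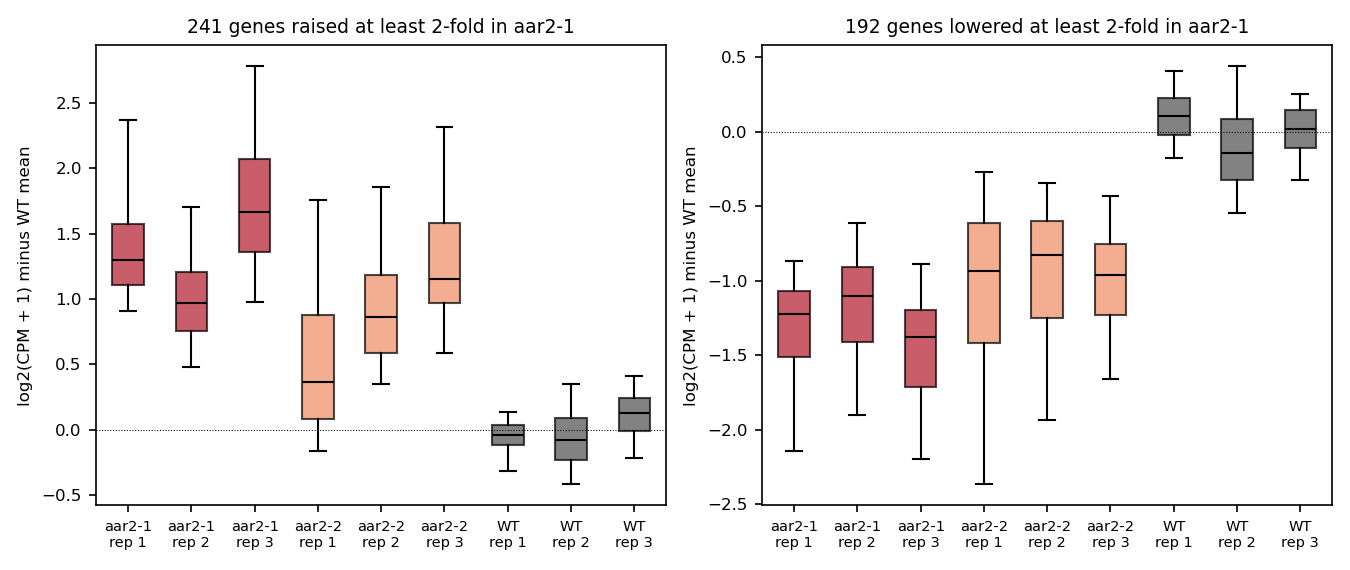
Box plots of log2(CPM + 1) minus the WT mean in each library, for the 241 genes raised (left) and the 192 lowered (right) at least 2-fold in aar2-1; boxes give the quartiles, lines the medians and whiskers the 5th and 95th percentiles. In the left panel aar2-1 replicate 3 has the highest median, 1.67, and aar2-2 replicate 1 the lowest of the mutant libraries, 0.37.

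SNU114B, BRR2B and PRP8B, the B copies of the genes for partners of AAR2 in the U5 particle, were raised in aar2-1, while of the A copies only SNU114A was called. Of 8 genes listed, AAR2 among them, 5 were called higher and 0 lower, with a median of 0.38. SNU114B, a copy of the GTPase gene, gave 8.83, 8.16 and 7.86 CPM in aar2-1, 8.89, 7.32 and 7.80 CPM in aar2-2 and 0.817, 1.91 and 0.762 CPM in WT. BRR2B, a copy of the helicase gene, gave 61.7, 70.3 and 54.7 CPM in aar2-1, 62.0, 58.5 and 59.3 CPM in aar2-2 and 29.7, 29.7 and 27.8 CPM in WT. Neither gene's mutant and WT libraries overlapped. The changes in aar2-1 were 2.14 (SE 0.18) and 1.07 (SE 0.09), each with a limma adjusted p of 0.000215, and PRP8B rose by 0.91 (SE 0.19).

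The A and B copies were not tested against each other. SNU114A gave 103, 94.7 and 82.9 CPM in aar2-1 against 65.6, 70.2 and 74.7 CPM in WT, a log2 fold change of 0.41, and STA1, which bridges U5 with the other particles of the tri-snRNP, changed by 0.36. PRP8A at 0.14 and BRR2A at 0.02 were not called. The copies of each protein are close in sequence, how reads shared by copies were counted is not given in the sources used here, and BRR2B overlaps AT2G42280 on the other strand. Among 19 genes for serine and arginine rich splicing proteins, 3 were called higher and 0 lower, none by more than 0.40; without WT replicate 1, WT replicate 2 or aar2-1 replicate 1 the count was 1.

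The shares called differed with the number of introns in the annotated gene model. Of 2797 tested genes with no intron, 6.86% were higher and 23.8% lower in aar2-1. With 1 to 4 introns the shares were 11.7% higher and 13.5% lower, with 5 to 9 introns 13.6% and 9.86%, with 10 to 19 introns 12.2% and 10.96%, and with at least 20 introns 7.99% and 10.8%. Genes without introns also had a lower median level in WT, 9.35 CPM, against 15.5 CPM for 1 to 4 introns and 36.8 CPM for at least 20, and the part of level in these shares was not tested. The median log2 fold change of genes without introns was -0.12. At 2-fold or more, genes without introns had the highest share of these 5 classes in both directions, 1.79% higher and 2.503% lower, against 1.59% and 1.17% with 1 to 4 introns, 0.846% and 0.392% with 5 to 9, 0.656% and 0.347% with 10 to 19, and 1.08% and 0% with at least 20. Of 82 chloroplast genes, 23 were higher (28.0%) and 0 lower.

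Of 15 DNA damage response genes tested, 8 were called higher, 0 lower and 7 not called; the count was 4 without WT replicate 1 and 5 without WT replicate 2 or aar2-1 replicate 1. NAC044, a transcription factor that acts below SOG1 in stopping the cell cycle, gave 12.4, 12.4 and 10.2 CPM in aar2-1, 12.4, 11.9 and 15.7 CPM in aar2-2 and 0.572, 1.33 and 0.798 CPM in WT. The 6 mutant libraries overlapped each other and stood far above WT. Its change in aar2-1 was 2.75 (SE 0.16, limma adjusted p = 6.66e-05). GMI1, a protein of recombination repair, gave 23.2, 20.7 and 18.6 CPM in aar2-1 and 5.31, 7.76 and 4.94 CPM in WT, a change of 1.66 (SE 0.14).

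PARP2, which marks broken DNA with poly(ADP-ribose), gave 11.05, 11.9 and 10.5 CPM in aar2-1 and 5.27, 6.71 and 5.19 CPM in WT, a change of 0.86 (SE 0.10). CYCB1;1, a mitotic cyclin that plants also express after DNA damage, rose by 0.57 (SE 0.12). SMR4, a cyclin-dependent kinase inhibitor near 1 CPM in WT, rose by 0.80 (SE 0.20) and was not called without WT replicate 1. PARP1, BRCA1 and RAD17 were called at 0.31, 0.51 and 0.40 and each lost its call under 4 or 5 of the 6 single-library omissions. SOG1 at -0.19, ATM at -0.01 and ATR at -0.08, which sense damage and relay the signal, were not called. Cyclins by product name were higher in 12 of 49 and lower in 3.

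Genes that answer mitochondrial dysfunction, known as retrograde stress genes, were called higher in 9 of 18 and lower in 3. The count of 3 became 1 without WT replicate 1, aar2-1 replicate 1 or aar2-1 replicate 3, and 0 without WT replicate 3. AT2G18193, an ATPase of the P-loop type, gave 24.3, 22.8 and 24.8 CPM in aar2-1, 22.6, 27.4 and 31.0 CPM in aar2-2 and 1.10, 5.12 and 1.78 CPM in WT. DTX3 (AT2G04050), a MATE efflux carrier, gave 23.3, 30.3 and 23.7 CPM in aar2-1, 28.8, 34.2 and 41.0 CPM in aar2-2 and 2.82, 4.87 and 3.96 CPM in WT. Both were steady within aar2-1 and clear of WT, with changes of 2.92 (SE 0.31) and 2.47 (SE 0.17). AT5G51440, a small heat shock chaperone, rose by 1.71 (SE 0.17), NDB4, an alternative NADH dehydrogenase, by 1.71 (SE 0.22) and UPOX by 1.07 (SE 0.16).

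AOX1A, the alternative oxidase that is the usual marker of this response, gave 81.0, 87.7 and 88.2 CPM in aar2-1 and 61.4, 62.4 and 62.5 CPM in WT, a change of only 0.46 (SE 0.09). Its relative AOX1D fell by 0.77, a call lost under 5 of the 6 single-library omissions, and NDB2 at -0.11 and NAC017 at -0.08 were not called. MATE carriers as a family were higher in 13 of 42 and lower in 5, and higher in 8 without aar2-1 replicate 1. AT3G23550, of this family, gave 48.8, 56.6 and 68.3 CPM in aar2-1, 28.7, 35.6 and 37.1 CPM in aar2-2 and 22.7, 23.8 and 23.9 CPM in WT.

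Sugar starvation genes and class II trehalose phosphate synthases, which respond to carbon status, were listed together with TPS1. Of this list 7 of 11 were higher and 0 lower, with a median of 0.60 in aar2-1 and 0.15 in aar2-2. No member was called in the direct test between the alleles. TPS8 gave 279, 276 and 316 CPM in aar2-1, 154, 185 and 236 CPM in aar2-2 and 119.9, 92.4 and 154 CPM in WT. TPS11 gave 186, 197 and 233 CPM in aar2-1, 103, 124 and 137 CPM in aar2-2 and 82.2, 79.1 and 108 CPM in WT. The aar2-1 libraries of both lay above every other library. Their changes against WT were 1.27 (SE 0.18) and 1.19 (SE 0.14). DIN10, a raffinose synthase family gene switched on in darkness, gave 833, 624 and 1256 CPM in aar2-1, 333, 489 and 657 CPM in aar2-2 and 302, 271 and 353 CPM in WT, a change of 1.497 (SE 0.27); it overlaps AT5G20260 on the other strand.

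DIN6 (ASN1), an asparagine synthetase of carbon starvation, gave 58.7, 23.7 and 96.5 CPM in aar2-1, 8.37, 13.8 and 15.4 CPM in aar2-2 and 15.1, 21.2 and 15.4 CPM in WT. Its change was 1.54 (SE 0.41, limma adjusted p = 0.0233), and the call was lost without WT replicate 1, WT replicate 3, aar2-1 replicate 1 or aar2-1 replicate 3. TPS1 at 0.06, the synthase that makes the signalling sugar itself, and DIN1 at 0.59 were not called.

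Resistance genes of the TIR-NBS-LRR class, intracellular receptors that sense pathogen effectors, were higher in 31 of 68 (45.6%) and lower in 1, with a median of 0.28; the CC-NBS-LRR class was higher in 3 of 20 and lower in 2. AT1G63750 gave 62.2, 49.5 and 71.5 CPM in aar2-1, 35.6, 44.9 and 55.6 CPM in aar2-2 and 19.2, 16.5 and 21.4 CPM in WT, a change of 1.62 (SE 0.17). AT1G56540 rose by 1.38 (SE 0.18). Many members lie in clusters of similar sequence, so reads may be shared between them.

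Salicylic acid defence genes ran the other way: 9 of 17 were lower and 0 higher, with a median of -0.59. FMO1, which makes the mobile immune signal N-hydroxypipecolic acid, gave 4.26, 4.29 and 3.03 CPM in aar2-1, 3.95, 4.65 and 4.03 CPM in aar2-2 and 17.5, 13.3 and 20.1 CPM in WT. ALD1, an enzyme of an earlier step on that route, gave 3.21, 3.98 and 2.24 CPM in aar2-1, 6.24, 3.75 and 3.97 CPM in aar2-2 and 19.4, 10.9 and 17.6 CPM in WT. Mutant and WT libraries of neither gene overlapped. The changes were -1.88 (SE 0.15) and -2.02 (SE 0.24), with limma adjusted p-values of 0.000215 and 0.000808.

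PR2, a secreted glucanase and marker of this defence, gave 109, 92.1 and 94.6 CPM in aar2-1, 129, 152 and 122 CPM in aar2-2 and 414, 207 and 356 CPM in WT, with WT replicate 2 the lowest of the 3. It fell by 1.66 (SE 0.21), PBS3, of salicylate synthesis, by 1.19 (SE 0.16), and the synthesis gene ICS1 by 0.55 (SE 0.11). PR1 gave 154, 190.1 and 107 CPM in aar2-1 and 296, 159.5 and 260.0 CPM in WT; its ranges overlapped and its -0.65 was not called (limma adjusted p = 0.0786). The regulators EDS1 at -0.10 and NPR1 at -0.09 were not called. Without WT replicate 2 the list had 13 lower and without aar2-1 replicate 2 it had 10. The count was 7 without WT replicate 1 or aar2-1 replicate 1, and 8 without WT replicate 3 or aar2-1 replicate 3.

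Jasmonate genes were higher in 11 of 23 and lower in 2, but the count of 11 was 7 without WT replicate 1, 6 without WT replicate 2 and 3 without aar2-1 replicate 1. CYP94C1, which breaks down the active hormone, gave 17.2, 10.2 and 19.6 CPM in aar2-1, 4.07, 6.60 and 18.2 CPM in aar2-2 and 2.70, 4.22 and 2.39 CPM in WT, a change of 2.00 (SE 0.42). JAZ6, a repressor of the pathway, rose by 0.85 (SE 0.16), and LOX3, an oxygenase early in synthesis, by 0.73 (SE 0.16). JAR1, which makes the active hormone, fell by 0.42, a call lost without WT replicate 1. The plant defensin gene AT2G26020 fell by 1.20, a call lost without WT replicate 1 or WT replicate 3, and the response genes VSP1 at -0.04 and VSP2 at -0.16 were not called.

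Enzymes of flavonoid and anthocyanin synthesis were raised in aar2-1. Of 19 flavonoid and anthocyanin genes, 8 were higher and 1 lower, with a median of 0.39 in aar2-1 and 0.89 in aar2-2. The 8 included CHS, F3H and F3PH of earlier steps and FLS1 of the flavonol branch, as well as late enzymes. CHS lost its call under 2 and FLS1 under 5 of the 6 single-library omissions. DFR, which commits flavonoids to anthocyanin, gave 85.6, 78.6 and 54.0 CPM in aar2-1, 82.5, 68.3 and 118 CPM in aar2-2 and 31.1, 30.4 and 28.5 CPM in WT. LDOX, the next enzyme, gave 51.5, 51.6 and 37.6 CPM in aar2-1, 60.8, 51.3 and 79.7 CPM in aar2-2 and 21.9, 23.7 and 21.7 CPM in WT. The alleles overlapped in both genes, and both lay above WT. The changes in aar2-1 were 1.22 (SE 0.20) and 1.02 (SE 0.16). MYBL2, a repressor of the pathway, fell by 0.97 (SE 0.22), and the activator PAP1 at -0.38 was not called. The difference between the alleles was not called for any member.

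Phosphate starvation genes had the largest share of called members of the lists with at least 8 tested. Of 24 tested, 20 were lower in aar2-1 and 0 higher, with a median of -0.95 in aar2-1 and -0.72 in aar2-2. The count of 20 became 15 without WT replicate 1 and 18 under every other single-library omission. These genes switch on when phosphate is short: SPX proteins sense inositol pyrophosphates, PHT1 carriers take phosphate up, and lipid enzymes replace membrane phospholipids. SPX3 gave 0.409, 1.03 and 1.57 CPM in aar2-1, 0.154, 1.19 and 2.13 CPM in aar2-2 and 11.3, 6.86 and 7.95 CPM in WT. SPX1 gave 14.3, 18.8 and 18.3 CPM in aar2-1, 19.9, 37.4 and 50.5 CPM in aar2-2 and 83.6, 58.2 and 65.8 CPM in WT. Both sensors fell below every WT library in aar2-1, and for SPX1 all 3 aar2-1 libraries also lay below aar2-2. The changes against WT were -2.29 (SE 0.34) and -1.95 (SE 0.28), with limma adjusted p-values of 0.00203 and 0.00167.

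Of the carriers, PHT1;4 gave 9.48, 10.1 and 8.66 CPM in aar2-1, 10.1, 22.8 and 20.5 CPM in aar2-2 and 52.1, 30.7 and 45.7 CPM in WT, a change of -2.04 (SE 0.27). MGD3, which makes galactolipid, gave 1.81, 3.53 and 4.06 CPM in aar2-1, 1.67, 6.86 and 10.7 CPM in aar2-2 and 26.8, 18.5 and 21.8 CPM in WT, a change of -2.53 (SE 0.45). The aar2-1 libraries of both lay below every WT library, and replicate 1 was the lowest in aar2-2. IPS1, a non-coding RNA that sequesters a microRNA, fell by 2.33 (SE 0.32), the phosphatase gene PECP1 by 2.44 (SE 0.42), the pyrophosphatase gene PS2 by 1.96 (SE 0.39) and the acid phosphatase gene PAP17 by 1.22 (SE 0.16). Not called were PHO1 at -0.01, which loads phosphate into the xylem, PHO1;H1 at -0.55, PHT1;5 at 0.21 and PAP10 at -0.15. Called lower outside the list, among the 12 largest falls, were the uncharacterized AT5G20790 at -2.72 (SE 0.39) and AT3G25240, of the DUF506 family, at -2.41 (SE 0.27).

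Root endodermis markers, at low levels, moved with this group: their summed level was 4.81 to 6.65 CPM in aar2-1, 4.54 to 6.16 CPM in aar2-2 and 7.80 to 8.31 CPM in WT. CASP2 was at 0 in 1 library and CASP5 in 2, and the 1 marker that could be tested was not called. The sum of root hair markers, 2.76 to 5.42 CPM in aar2-1 and 2.71 to 5.19 CPM in WT, overlapped. Whether the share of root in the seedlings had a part in the phosphate result was not tested. In bulk samples, fewer cells of a type and less RNA per cell cannot be told apart.

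Several enzyme families had more members called lower than higher, among them the pectin-modifying enzymes above and the 4 described next. Over all tested genes the shares were 13.6% lower and 11.5% higher. Cytochrome P450 genes were lower in 57 of 131 (43.5%) and higher in 13; the 57 became 29 without WT replicate 1, 35 without WT replicate 3 and 37 without aar2-1 replicate 1. UDP-glycosyltransferases were lower in 38 of 95 (40.0%) and higher in 6, and the 38 became 22, 23 and 24 without the same libraries. CYP76C2 gave 0.853, 1.61 and 0.671 CPM in aar2-1 and 4.94, 5.48 and 6.35 CPM in WT, a change of -1.71 (SE 0.17). UGT84A3, which conjugates phenylpropanoid acids, gave 33.7, 36.6 and 27.4 CPM in aar2-1, 51.3, 51.8 and 53.1 CPM in aar2-2 and 65.6, 70.0 and 61.7 CPM in WT. All 3 aar2-1 libraries of UGT84A3 lay below aar2-2, which lay below WT, and the change against WT was -1.001 (SE 0.10).

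ELI3-2, an alcohol dehydrogenase of the cinnamyl alcohol family tied to defence, gave 2.56, 2.16 and 1.21 CPM in aar2-1, 1.94, 0.465 and 1.28 CPM in aar2-2 and 16.6, 11.9 and 18.0 CPM in WT, a change of -2.48 (SE 0.26). Glutathione S-transferases were lower in 12 of 42 and class III peroxidases in 11 of 34, with 2 higher in each family. These 2 counts were 6 and 4 without WT replicate 1, 5 and 7 without WT replicate 3 or aar2-1 replicate 1, and the first was 5 without aar2-1 replicate 3.

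Cold response genes were lower in 6 of 12 and higher in 0, with 2 lower without WT replicate 1 and 2 higher without aar2-1 replicate 2, and abscisic acid response genes were lower in 8 of 14 and higher in 1, with 5 lower without aar2-1 replicate 1. HAI1, a phosphatase induced by abscisic acid, gave 2.59, 2.98 and 2.81 CPM in aar2-1 and 7.23, 6.89 and 8.09 CPM in WT, a change of -1.15 (SE 0.12). RD22, a dehydration marker, fell by 0.52 (SE 0.07), the freezing tolerance gene COR15A by 0.75 and NCED3, the synthesis gene of abscisic acid, by 1.16 (SE 0.24). Of 19 clock genes, 7 were lower and 1 higher, and 3 or 4 were lower under each of the 6 single-library omissions. FKF1, a blue light receptor of the photoperiod pathway, gave 10.5, 9.60 and 7.63 CPM in aar2-1, 21.6, 21.7 and 12.4 CPM in aar2-2 and 27.5, 27.5 and 23.5 CPM in WT, a change of -1.41 (SE 0.19); it overlaps AT1G68060 on the other strand. The core genes CCA1 at -0.22 and TOC1 at 0.11 were not called. The time of harvest is not given in the sources used here.

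Among 11 flowering regulators, 4 were higher and 1 lower, with 2 higher without aar2-1 replicate 2. FT, the mobile signal of flowering, gave 3.27, 3.12 and 3.003 CPM in aar2-1 and 1.72, 1.19 and 1.38 CPM in WT, a change of 0.77 (SE 0.11). AGL24, a MADS box factor, gave 5.80, 5.73 and 6.29 CPM in aar2-1 and 14.9, 14.3 and 18.5 CPM in WT, a change of -1.28 (SE 0.10). FLC, the main repressor of flowering, was left out by the filter on low values but gave 0.0682, 0.103 and 0 CPM in aar2-1, 0.123, 0.0581 and 0.0284 CPM in aar2-2 and 2.08, 2.96 and 2.39 CPM in WT. All 6 mutant libraries lay far below WT; in the limma fit with no filter on low values FLC changed by -1.71 (adjusted p = 4.55e-05) in aar2-1 against WT. AP1, a floral identity factor also below the filter, gave 0.580, 1.20 and 1.501 CPM in aar2-1 and 0.123, 0.0361 and 0 CPM in WT, and changed by 0.97 (adjusted p = 0.00286) in that fit. Floral organ markers summed to 3.43 to 5.02 CPM in aar2-1, 2.96 to 4.59 CPM in aar2-2 and 2.00 to 3.28 CPM in WT, and their part in these results was not tested. Of 38 photosystem and light harvesting genes, 2 were lower and 0 higher, with a median of -0.21. The count of 2 was 4 without WT replicate 3, 1 without aar2-1 replicate 2 and 0 under each of the other 4 omissions. Their summed level was 80279 to 84529 CPM in aar2-1 and 84449 to 119287 CPM in WT. Ribosomal protein genes were higher in 41 of 282 (14.5%) and lower in 5, a share higher close to the 11.5% of all genes, and the 41 became 6 without WT replicate 1, 13 without WT replicate 2 and 10 without aar2-1 replicate 1. Heat shock genes were lower in 1 of 10 and higher in 0, and iron genes lower in 3 of 18 and higher in 1.

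**Figure D4:**
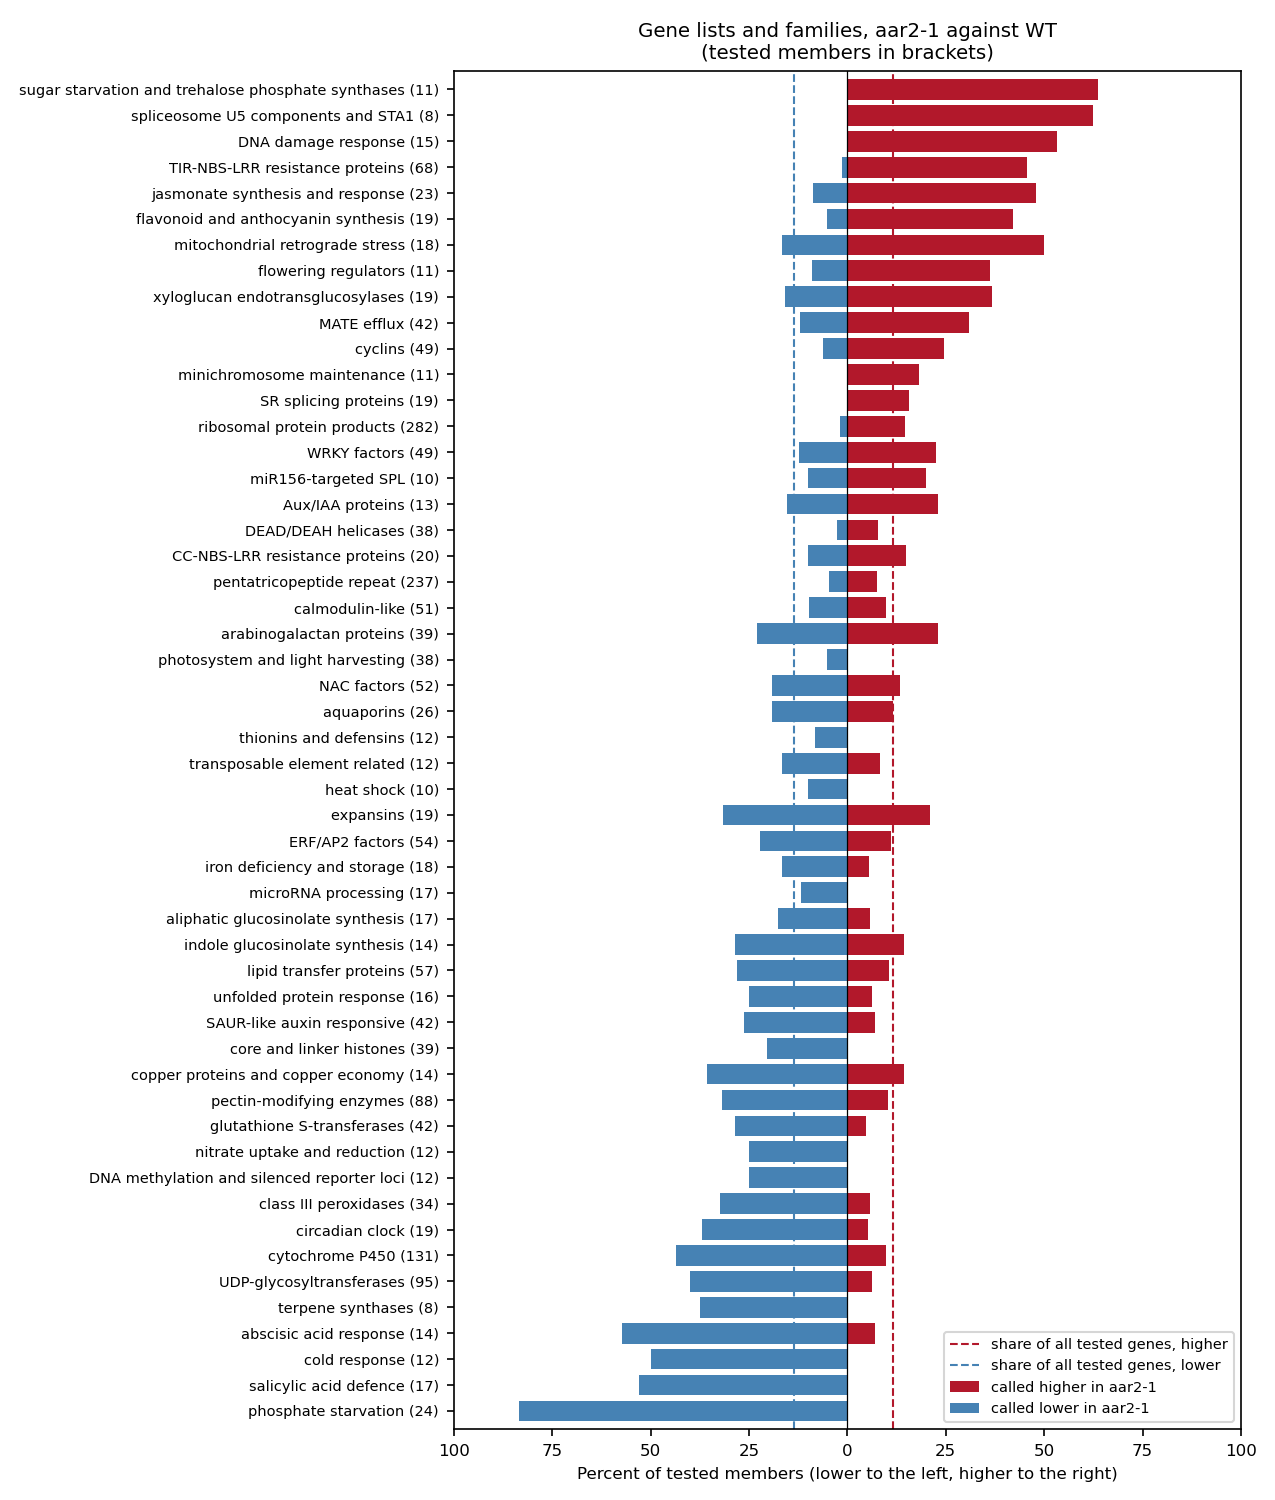
Bars give the percent of tested members of each gene list or product family with at least 8 tested that were called higher (right) or lower (left) in aar2-1; dashed lines give the shares of all tested genes, 11.5% higher and 13.6% lower. Phosphate starvation has the longest bar to the left, 83.3%, and the sugar starvation list the longest to the right, 63.6%.

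Few genes differed between the alleles in a direct test of aar2-1 minus aar2-2: 4 genes of 18838 were called (0.0212%) and 3022 had an unadjusted p under 0.05. The 4 were called at effects of 3.08 for MRD1, 2.61 for HEI10, -2.68 for AT1G75945 and 0.87 for AT4G36850. In the first 3 it was aar2-2 that stood apart from both other genotypes. AT4G36850, a PQ-loop membrane protein gene, was higher in aar2-1 than in both other genotypes, with 46.6, 44.1 and 51.7 CPM in aar2-1, 23.2, 25.3 and 28.2 CPM in aar2-2 and 29.7, 27.9 and 32.7 CPM in WT. Against WT it changed by 0.64 (SE 0.09, limma adjusted p = 0.00178) in aar2-1 and by -0.23 in aar2-2, and the difference of 0.87 (SE 0.09) had a limma adjusted p of 0.0119.

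Without aar2-1 replicate 2, the library lowest in most raised genes, 175 genes were called between the alleles (0.929%), 65 higher and 110 lower in aar2-1, and the 4 were among them. Without aar2-2 replicate 1 the count was 13 (0.0690%) and without aar2-2 replicate 3 it was 7 (0.0372%). DESeq2 on recovered reads called 383 (2.16%) and edgeR 4. Of the 433 genes changed at least 2-fold in aar2-1, 104 had all 3 aar2-1 libraries beyond the 3 aar2-2 libraries on the side away from WT, 43 higher and 61 lower. Over all tested genes, aar2-1 lay wholly above aar2-2 in 6.12% and wholly below in 13.7%. None of the 104 passed the direct test in limma, the smallest adjusted p being 0.0728, and their values are given as a description. Of the 104, 55 were called with DESeq2, 24 without aar2-1 replicate 2, 5 under a replicate block and 0 with edgeR.

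Of these genes with larger effects in aar2-1, DIN6 had the widest gap: against WT it stood at 1.54 in aar2-1 and at -0.46 in aar2-2. AT3G01345 came next with 3.88 in aar2-1 and 2.46 in aar2-2. AT5G63375, uncharacterized and overlapping AT5G63370, gave 9.14, 6.07 and 12.9 CPM in aar2-1, 3.27, 3.34 and 3.63 CPM in aar2-2 and 2.17, 2.99 and 2.58 CPM in WT. WRI4, an AP2 factor of cuticular wax synthesis, gave 27.1, 23.9 and 35.4 CPM in aar2-1, 15.6, 15.4 and 15.5 CPM in aar2-2 and 11.6, 14.4 and 13.5 CPM in WT. In both, aar2-2 sat close to WT and aar2-1 well above. Cell wall genes were among them too. BXL1, a xylosidase that trims wall polymers, gave 487, 458 and 599 CPM in aar2-1, 215, 314 and 348 CPM in aar2-2 and 218, 253 and 225 CPM in WT. SHV3, a membrane-anchored protein needed for wall integrity, had 1.17 in aar2-1 and 0.28 in aar2-2, and AT1G61100, a TIR-class protein gene, 1.36 in aar2-1 and 0.51 in aar2-2.

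Lowered genes with larger effects in aar2-1 included stress transcription factors and a carrier. AT2G15020, uncharacterized, gave 6.62, 12.7 and 3.99 CPM in aar2-1, 24.6, 17.9 and 14.9 CPM in aar2-2 and 48.1, 66.8 and 36.7 CPM in WT. ERF5, an ethylene response factor of wound and chitin signalling, gave 11.6, 9.40 and 9.77 CPM in aar2-1, 15.6, 33.6 and 30.5 CPM in aar2-2 and 42.0, 26.8 and 47.9 CPM in WT. ORA47, an AP2 factor that raises jasmonate synthesis, gave 3.001, 3.53 and 1.82 CPM in aar2-1, 8.95, 5.75 and 6.04 CPM in aar2-2 and 12.7, 7.79 and 8.71 CPM in WT. For ERF5 and ORA47 the aar2-2 and WT ranges overlapped, and neither was called in aar2-2. MOT1, a molybdate carrier, gave 1.19, 1.17 and 0.479 CPM in aar2-1, 2.96, 2.76 and 1.73 CPM in aar2-2 and 4.54, 4.26 and 4.68 CPM in WT. SPX1, the phosphate sensor above, and FKF1 belong here as well, with log2 differences between the alleles of -0.94 and -0.90.

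**Figure D5:**
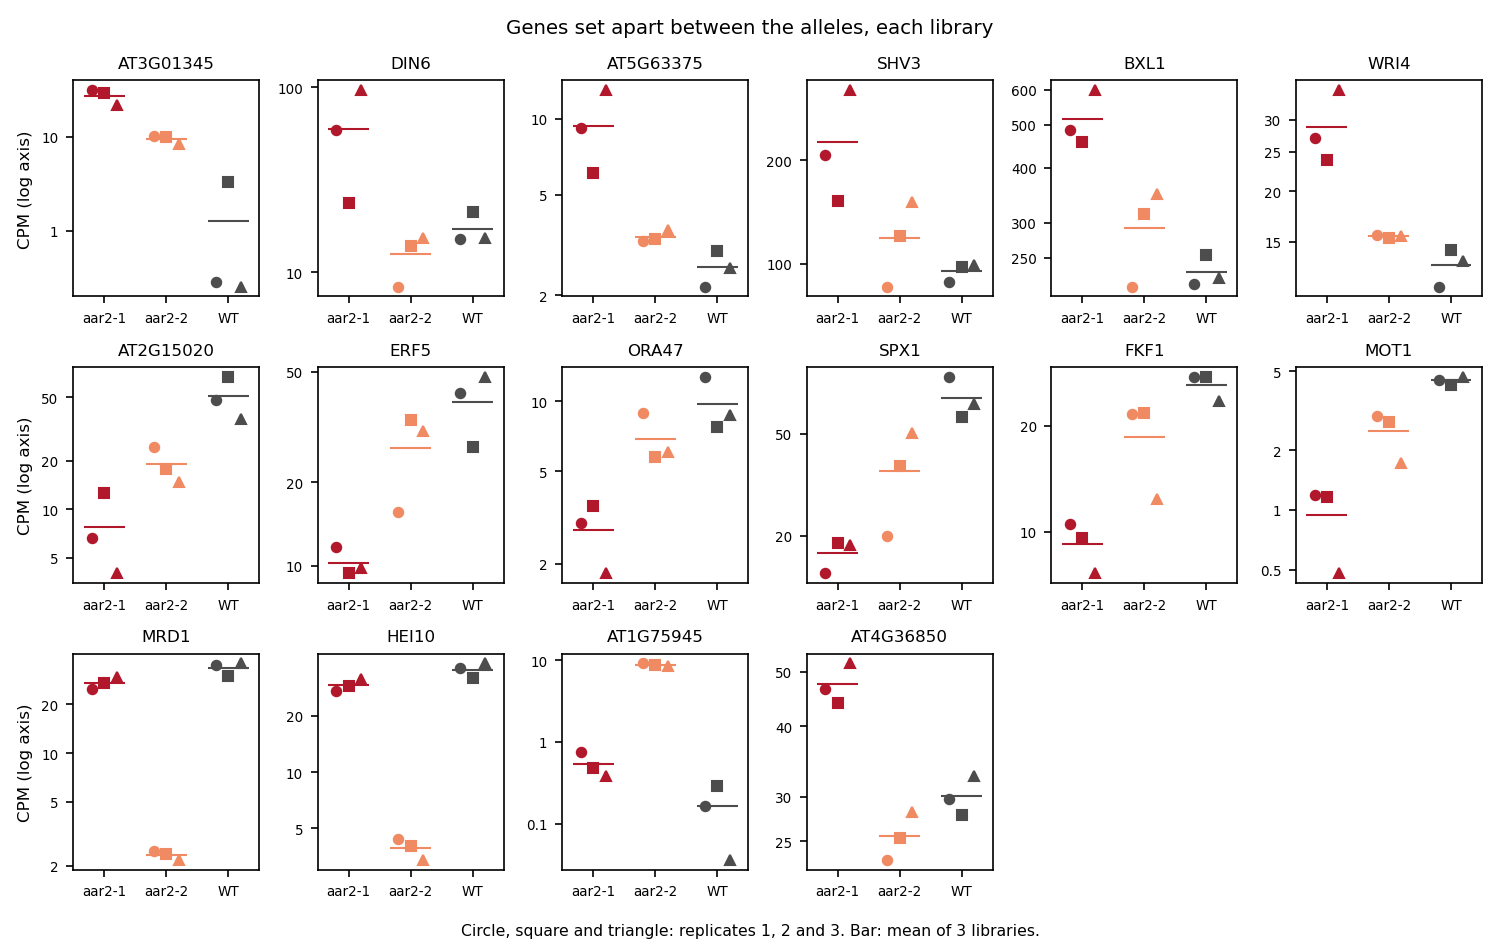
CPM on a log axis in each library for 12 genes with larger effects in aar2-1 (upper 2 rows) and the 4 genes called between the alleles (lowest row); aar2-1 is left, aar2-2 in the middle and WT right, symbols are replicates 1, 2 and 3 and bars are means. All 3 aar2-1 points of DIN6 lie above those of aar2-2 and WT, while MRD1 and HEI10 are low in aar2-2 and close to WT in aar2-1.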

How the data were processed

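Messenger RNA of 14-day-old seedlings was sequenced in 9 libraries, 3 per genotype, from total RNA taken with TRI Reagent and a NEBNext Ultra II kit, per the labels' protocols. The authors deposited CPM values for 22903 loci; the submitters' processing notes name featureCounts 1.64, DESeq2 and the build TAIR10, and the aligner is not given in the sources used here. The CPM values step in whole reads: with a tolerance of 0.05 reads, at least 99.9956% of the values in each library came out whole, and edgeR 4.0.16 and DESeq2 1.42.0 were run on the recovered reads as alternatives, calling 4860 and 5183 genes in aar2-1 against WT, where limma called 4732. Replicates of a group differed beyond sampling noise, with a chi-square per degree of freedom of at least 4.41. Genes averaging 1 CPM or more were kept (18838, with 4065 left out), log2(CPM + 1) was taken, and limma 3.58.1 (R 4.3.3) was fitted once over all 9 libraries with a trend in the variance, Benjamini-Hochberg adjustment and a threshold of 0.05. The contrasts were aar2-1 minus WT, aar2-1 minus aar2-2 and aar2-2 minus WT. The fit was also run on simulated reads with 2-fold changes and noise independent between genes, unlike the shared swing above. No conclusion is drawn from that run. Alternatives were another pseudocount, no filter, quantile and TMM scaling, only the 2 groups compared, a replicate block, a stricter threshold and leaving out each library.

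Genes named were AAR2, the largest changes by fold and by CPM among called genes whose libraries did not overlap, called or described genes between the alleles, and members of gene lists and product families. The members and lists were chosen with earlier results of these data known, and some family name patterns were corrected after values were seen. Names of genes, introns and upstream sequences came from the RefSeq annotation of TAIR10.1, which matched 22767 loci. Tables were handled with pandas 2.3.3 and numpy 2.4.6 in Python 3.11.15.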

Additional observations from a re-analysis of the deposited data

Results flagged for a closer look

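The effect in 4 genes differed between aar2-1 and aar2-2 by a direct test of the difference (limma, Benjamini-Hochberg adjustment over 18838 genes). MRD1 differed by 3.08 on the log2 scale (adjusted p = 2.18e-07), with 24.9, 27.2 and 29.6 CPM in aar2-1, 2.47, 2.38 and 2.18 CPM in aar2-2 and 35.1, 30.2 and 35.9 CPM in WT. HEI10, a gene of meiotic crossover formation, differed by 2.61 (adjusted p = 1.18e-06), with 27.2, 28.7 and 31.4 CPM in aar2-1, 4.38, 4.01 and 3.40 CPM in aar2-2 and 36.0, 31.7 and 38.0 CPM in WT. These neighbours overlap on opposite strands, so their reads cannot be told apart, and against WT aar2-1 was called for MRD1 at -0.30 and not called for HEI10 at -0.26.

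AT1G75945, uncharacterized, differed by -2.68 (adjusted p = 7.93e-06), with 0.750, 0.480 and 0.383 CPM in aar2-1, 9.11, 8.80 and 8.42 CPM in aar2-2 and 0.163, 0.289 and 0.0363 CPM in WT. AT4G36850 differed by 0.87 (adjusted p = 0.0119), and its aar2-1 libraries were the ones that stood above both other genotypes.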

How the results depend on the processing

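Of the 4732 genes called in aar2-1 against WT, 1699 passed an adjusted p under 0.01; leaving out 1 library gave 2331 to 4632, and the 8 other settings gave 3924 to 5183. The 433 genes changed at least 2-fold became 654 with a pseudocount of 0.1, 710 with edgeR and 743 with DESeq2, and 327 to 628 with 1 library left out. The 4 genes called between the alleles became 12 under a replicate block and 383 with DESeq2, and 3 to 175 with 1 library left out; the cause was not tested. Same-numbered libraries of aar2-1 and WT deviated together with correlations of -0.044, 0.223 and 0.220 in replicates 1, 2 and 3. For aar2-1 and aar2-2 these were 0.189, -0.173 and 0.518, and for aar2-2 and WT -0.145, -0.191 and 0.263. The main fit did not pair libraries by number, and whether same-numbered libraries share a batch was not tested. The replicate block gave 4790 calls against WT, 2321 higher and 2469 lower. Of the called genes 45.8% were higher, 37.3% without WT replicate 2 and at most 49.4% in any setting run. Of 205 values of named genes, 45 lost their call at an adjusted p under 0.01, and 35 of 185 lost it without WT replicate 1. No value changed direction under the settings run. The 205 values leave out some called members of the gene lists and families, and more of these lost their call without WT replicate 1. Precision is lowest for genes near 1 CPM.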
